A study of Mus musculus with 12 samples.

Results

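Expression of 9 genes of the leukocyte adhesion cascade was followed in mouse gingiva. The genes were chosen by name, with earlier results of these data known. Each had an entry among the 21965 genes of the deposited count table. They encode the endothelial selectins (Sele and Selp), the selectin ligand PSGL (Selplg), the immunoglobulin-type integrin ligands (Icam1 and Vcam1), the endothelial junction molecule Pecam1, and the leukocyte β2 integrins (the α chains Itgal and Itgam and their partner Itgb2). All 9 passed the filter on low counts and were tested.

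Leukocytes leave the blood in a sequence of adhesive steps. Selectins on the vessel wall bind glycosylated ligands such as PSGL on passing leukocytes, so that the cells slow down and roll. Chemokine signals then switch leukocyte integrins to a binding state, and these hold the cell on Icam1 and Vcam1 until it crosses between endothelial cells at junctions that contain Pecam1. In the gingiva neutrophils take this route continuously, and people who lack a working β2 integrin chain develop severe periodontitis at an early age.

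Gingival RNA was sequenced in 12 libraries, 3 in each of 4 groups of age- and sex-matched mice under 12 weeks old. The groups were C57BL/6 wild-type (WT) mice and mice labelled Cybb-/-, either naive or 8 days after a silk ligature was tied at a maxillary molar. Cybb encodes the membrane subunit of the phagocyte oxidase Nox2, and its loss in the labelled mice was not restricted to a cell type. The WT mice (C57BL/6J in the study's methods) and the mutant line came from different sources, so colony and genotype cannot be told apart here. Values are CPM, counts scaled to library size with edgeR's TMM factors, and n counts libraries. With 3 mice and 3 libraries per group, p-values measure the spread between mice of a group.

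The labelled genotype was checked first. Cybb was at 5.06 ± 0.758 CPM in WT naive and 12.1 ± 3.43 CPM in WT ligated libraries, against 47.9 ± 7.56 CPM in naive and 57.0 ± 6.31 CPM in ligated libraries labelled Cybb-/- (SD, n = 3). The count was thus higher where the label calls for its loss. Reads summed over all exons cannot tell an intact from a disrupted transcript, so the groups are named as labelled throughout.

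The positions of the genes follow GENCODE M21 on GRCm38. Sele and Selp lie next to each other on the plus strand of chromosome 1, at chr1:164048234-164057677 and chr1:164115264-164150026. Selplg is at chr5:113818536-113832644 (minus), Icam1 at chr9:21015985-21028817 (plus), Vcam1 at chr3:116109949-116129688 (minus) and Pecam1 at chr11:106654217-106750628 (minus). Itgal and Itgam are both on the plus strand of chromosome 7, at chr7:127296260-127335138 and chr7:128062640-128118491, and Itgb2 is at chr10:77530252-77565708 (plus). Counts were taken over exons of each gene.

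The bases before the start are shown for the 4 of 9 members with an entry in the RefSeq promoter table (GRCm38.p6). Each line gives the 250 bases upstream of the annotated start, 5′ to 3′ on the gene's strand. The RefSeq start of Icam1, from which its positions are counted, lies 45 bases before the GENCODE start given above, while those of the other 3 coincide. Capitals mark motif matches. They are GGNNNTTCC, a loose form of the NF-κB site, in Sele, Selp and Icam1, and GAGGAAG, a core of sites bound by the myeloid factor PU.1, in Itgam.
Sele, chr1:164047984-164048233 (plus strand): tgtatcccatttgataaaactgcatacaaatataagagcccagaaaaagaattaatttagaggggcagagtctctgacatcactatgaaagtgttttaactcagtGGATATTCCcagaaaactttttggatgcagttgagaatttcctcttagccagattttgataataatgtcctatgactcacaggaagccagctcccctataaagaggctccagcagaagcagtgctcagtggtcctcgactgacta
Selp, chr1:164115014-164115263 (plus strand): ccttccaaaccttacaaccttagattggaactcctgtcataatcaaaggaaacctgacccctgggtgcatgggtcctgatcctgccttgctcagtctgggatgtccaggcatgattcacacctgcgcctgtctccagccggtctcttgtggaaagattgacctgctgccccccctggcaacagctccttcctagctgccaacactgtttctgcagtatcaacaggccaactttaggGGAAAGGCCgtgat
Icam1, chr9:21015690-21015939 (plus strand): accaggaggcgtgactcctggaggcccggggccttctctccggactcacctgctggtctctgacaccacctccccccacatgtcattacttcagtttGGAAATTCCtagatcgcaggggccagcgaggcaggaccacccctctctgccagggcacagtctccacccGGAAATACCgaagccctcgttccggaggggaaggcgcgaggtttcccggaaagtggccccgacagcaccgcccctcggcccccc
Itgam, chr7:128062390-128062639 (plus strand): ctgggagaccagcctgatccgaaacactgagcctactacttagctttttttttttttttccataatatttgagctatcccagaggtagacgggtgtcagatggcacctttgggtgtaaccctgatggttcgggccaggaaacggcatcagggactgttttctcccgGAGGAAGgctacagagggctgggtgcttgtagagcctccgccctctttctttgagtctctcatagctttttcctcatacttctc

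Both strands of the window from 250 bases before to 50 bases after the start were searched. The loose NF-κB letters, which were chosen after the sequences had been seen, matched from -145 to -137 in Sele, from -14 to -6 on the opposite strand in Selp, and in Icam1 from -153 to -145 on both strands and from -84 to -76 on the opposite strand. They also matched 18.5% of the 32851 promoters of the table. A stricter form of the NF-κB consensus matched 0 of the 4 members and 4.79% of all promoters. GAGGAAG matched Itgam from -84 to -78, and once more on the opposite strand from 31 to 37, and matched 13.6% of all promoters. These matches describe the letters in the window and no binding was measured.

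Per kilobase of exon, Pecam1, Selp, Sele and Icam1 were the most abundant of the 9 transcripts in WT naive gingiva, and Vcam1 was among the least. The mean RPKM there (CPM divided by exon length in kilobases) was 7.04 for Pecam1, 6.81 for Selp, 4.82 for Sele, 3.30 for Icam1, 1.73 for Itgb2, 1.18 for Itgam, 0.972 for Selplg, 0.797 for Vcam1 and 0.508 for Itgal. The ranges over libraries overlapped between Pecam1 and Selp, between Sele and Icam1, and between Itgam and Selplg, so the order within these neighbours was not resolved. In ligated libraries labelled Cybb-/- Selp had the highest mean RPKM, at 31.6, but its range of 8.68 to 44.6 enclosed that of Pecam1 (12.9 to 20.7) and most of that of Sele (5.04 to 21.5). Itgb2 (6.75 to 7.17 RPKM) stood level with Icam1 (6.47 to 6.88 RPKM) there, and Vcam1 (1.77 to 2.77 RPKM) was the lowest by mean with a range that overlapped Itgal's (1.87 to 3.00 RPKM).

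All 9 genes rose with ligature in the mean of both genotypes, by between 1.78-fold (Icam1) and 3.61-fold (Selp). The edgeR quasi-likelihood fit (Benjamini-Hochberg adjustment over 15046 genes, called at an adjusted p under 0.05) called 9 of 9 members higher in the mean of the genotypes, where 14.7% of all genes tested were called higher. Within the libraries labelled Cybb-/- it called 9 of 9 higher, where 9.95% of all genes were. Within WT it called 2 of 9 higher (Pecam1 and Itgb2), against 2.31% of all genes, and 7 of 9 had an unadjusted p under 0.05. The median log2 fold change of the members was 1.14 in the mean of the genotypes, 0.83 in WT and 1.40 in the libraries labelled Cybb-/-, while that of all genes was -0.03 in each of these contrasts. Ligated and naive libraries did not overlap for 6 of 9 members in WT (Sele, Selplg, Pecam1, Itgal, Itgam and Itgb2), against 13.3% of all genes that stood higher without overlap, and for 9 of 9 in the libraries labelled Cybb-/-, against 18.5%. Without WT naive replicate 1, WT naive replicate 2, WT ligated replicate 2 or WT ligated replicate 3 in turn, 0 members were called in WT, and without ligated replicate 1 labelled Cybb-/- 5 of 9 (Vcam1, Pecam1, Itgal, Itgam and Itgb2) were called in that genotype. In the mean of the genotypes all 9 were called whichever of the 12 libraries was left out.

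**Figure D1:**
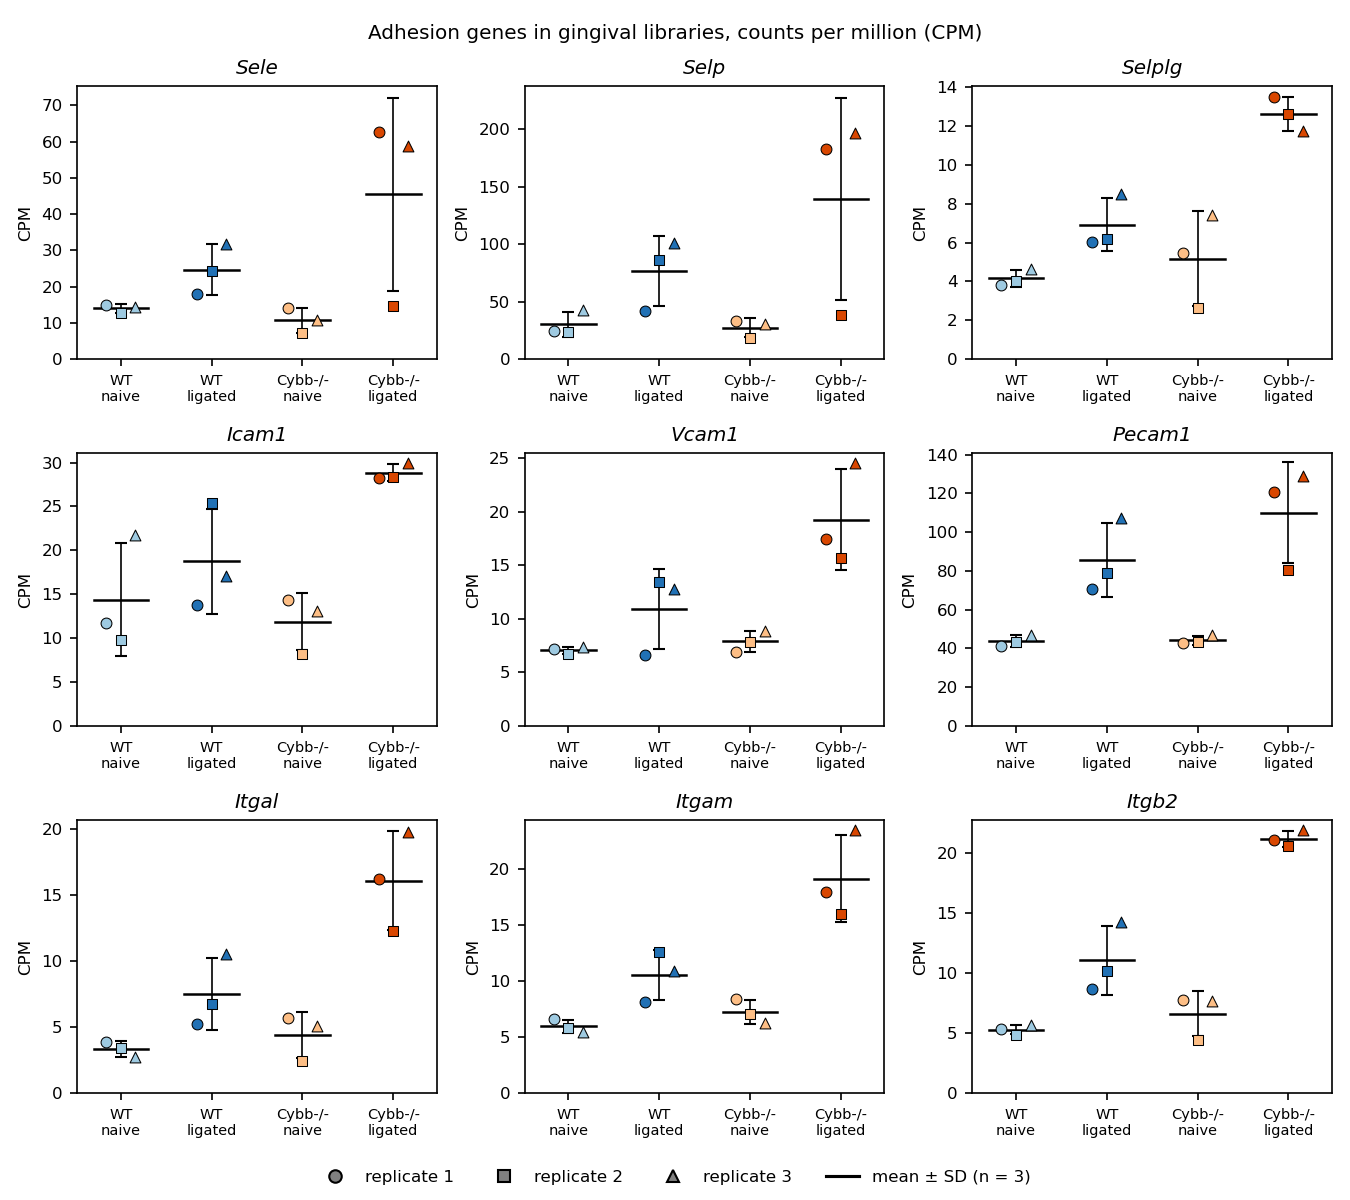
Level of each adhesion gene in each library, in CPM on a linear axis from 0. Symbols give the replicate (circle 1, square 2, triangle 3), bars the mean and SD of 3 libraries per group. All 9 genes were higher in the 3 ligated than in the 3 naive libraries labelled Cybb-/-, and the square in the ligated Cybb-/- group marks the library in which Sele (14.7 CPM) and Selp (38.3 CPM) stood low.

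In the mean of both genotypes Selp had the largest log2 fold change of the members (1.85 ± 0.37), and both selectins spread widely between libraries. Sele, the E-selectin that activated endothelium places on its surface, was at 15.0, 12.7 and 14.4 CPM in the WT naive libraries and at 17.9, 24.4 and 31.8 CPM in the WT ligated ones. In the libraries labelled Cybb-/- it was at 14.1, 7.21 and 10.8 CPM when naive and at 62.7, 14.7 and 58.8 CPM when ligated. Ligated libraries were above naive ones in either genotype, but ligated replicate 2 labelled Cybb-/- was below all 3 ligated WT libraries and only just above its own naive group. The log2 fold change of Sele was 0.82 ± 0.44 (SE, adjusted p = 0.322) in WT and 2.09 ± 0.45 (adjusted p = 0.0118) in the libraries labelled Cybb-/-.

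Selp, the P-selectin that endothelial cells and platelets store in granules, followed the same libraries. It was at 24.7, 23.1 and 42.3 CPM in WT naive, 42.2, 86.4 and 101 CPM in WT ligated, 33.3, 18.1 and 30.5 CPM in naive libraries labelled Cybb-/- and 183, 38.3 and 197 CPM in ligated ones. The highest WT naive and the lowest WT ligated library were level, and ligated replicate 2 labelled Cybb-/- was again the lowest of all 6 ligated libraries. Its log2 fold change was 1.35 ± 0.52 (adjusted p = 0.178) in WT and 2.35 ± 0.54 (adjusted p = 0.0155) in the libraries labelled Cybb-/-. Without that replicate the change was 2.51 for Sele and 2.80 for Selp. Without ligated replicate 1 or naive replicate 2 labelled Cybb-/- neither selectin was called in that genotype, and without ligated replicate 3 Selp was not.

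The library that was low in selectins was not equally low in all members. Ligated replicate 2 labelled Cybb-/- had 28.4 CPM of Icam1 and 20.6 CPM of Itgb2, within 2 CPM of the other 2 libraries of its group. It was the lowest of its group in Vcam1, Pecam1 (80.3 CPM against 121 and 129 CPM), Itgal, Itgam and Itgb2 as well. In Selplg and Icam1 it stood between the other 2. Its summed pan-leukocyte markers were at 159 CPM against 209 and 238 CPM. Its summed CPM over 10 endothelial marker genes was 255, against 353 and 362 in the other 2, and its summed fibroblast markers were at 3266 CPM against 7780 and 8196 CPM. Its summed neutrophil markers were at 2493 CPM against 4425 and 11643 CPM, a sum made up mostly of S100a8 and S100a9 (966 and 1414 CPM in this library), while 4 of the 9 neutrophil genes were highest in it, among them Retnlg (17.8 CPM against 8.12 and 9.49 CPM) and Ly6g (1.77 CPM against 0.235 and 0.502 CPM). It stood higher than the other 2 in summed oral epithelium markers (96475 CPM against 55937 and 61948 CPM) and skeletal muscle markers (2248 CPM against 669 and 774 CPM). Of the platelet markers Itga2b was between 7.86 and 15.4 CPM (highest in this library), Pf4 between 1.58 and 4.67 CPM, Gp1bb between 0.811 and 2.43 CPM (also highest in this library), Gp9 at most 0.214 CPM and Gp1ba at most 0.134 CPM (each at 0 in some libraries), while Ppbp ranged from 128 to 1503 CPM. The part of these in the selectin values was not tested.

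Selplg encodes PSGL, the leukocyte glycoprotein that all selectins bind. It was at 3.81, 4.02 and 4.63 CPM in WT naive, 6.05, 6.20 and 8.48 CPM in WT ligated, 5.48, 2.61 and 7.44 CPM in naive libraries labelled Cybb-/- and 13.5, 12.6 and 11.8 CPM in ligated ones. Each ligated library labelled Cybb-/- was above each ligated WT library, unlike the selectins themselves. The log2 fold change with ligature was 0.74 ± 0.31 (adjusted p = 0.208) in WT and 1.29 ± 0.31 (adjusted p = 0.0183) in the libraries labelled Cybb-/-.

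The integrin ligands had smaller log2 fold changes than the selectins in each genotype, a difference that was not tested. Icam1, the endothelial and epithelial ligand of both β2 integrins studied here, was at 11.7, 9.74 and 21.7 CPM in WT naive, 13.8, 25.4 and 17.1 CPM in WT ligated, 14.3, 8.18 and 13.2 CPM in naive libraries labelled Cybb-/- and 28.2, 28.4 and 29.98 CPM in ligated ones. WT ligated and WT naive libraries overlapped, whereas the ligated libraries labelled Cybb-/- were the highest 3 of the 12 and lay close together. Its log2 fold change was 0.39 ± 0.31 (adjusted p = 0.533) in WT, the smallest of the 9 members, and 1.28 ± 0.32 (adjusted p = 0.0215) in the libraries labelled Cybb-/-. WT naive replicate 3, with 21.7 CPM, carried 33264 CPM of summed salivary gland markers against 64.0 and 3077 CPM in the other 2 WT naive libraries. Without it the log2 fold change of Icam1 in WT was 0.81, and without WT ligated replicate 2 it was 0.10, neither of them called. In the libraries labelled Cybb-/- edgeR called Icam1 in 2 of 6 fits with a library left out (highest adjusted p = 0.0783).

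Vcam1, the ligand of α4 integrins on activated endothelium, was at 7.19, 6.70 and 7.33 CPM in WT naive and at 6.60, 13.4 and 12.8 CPM in WT ligated libraries. It was at 6.93, 7.88 and 8.88 CPM in naive and at 17.4, 15.7 and 24.6 CPM in ligated libraries labelled Cybb-/-. WT ligated replicate 1 stayed below the naive range. The log2 fold change was 0.63 ± 0.26 (adjusted p = 0.204) in WT and 1.28 ± 0.26 (adjusted p = 0.00866) in the libraries labelled Cybb-/-, where it was called with any 1 library left out.

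Pecam1, the junctional molecule of endothelial cells that is also carried by platelets and leukocytes, gave the most precise change. It was at 41.3, 43.2 and 47.1 CPM in WT naive, 70.7, 79.0 and 107 CPM in WT ligated, 42.7, 43.1 and 46.9 CPM in naive libraries labelled Cybb-/- and 121, 80.3 and 129 CPM in ligated ones. All 6 ligated libraries were above all 6 naive ones. The log2 fold change was 0.97 ± 0.19 (adjusted p = 0.0246) in WT and 1.31 ± 0.19 (adjusted p = 0.00234) in the libraries labelled Cybb-/-.

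The β2 integrin chains all rose in the mean of both genotypes. Itgal, the α chain of LFA, was at 3.90, 3.38 and 2.73 CPM in WT naive, 5.23, 6.75 and 10.5 CPM in WT ligated, 5.66, 2.41 and 5.06 CPM in naive libraries labelled Cybb-/- and 16.2, 12.3 and 19.7 CPM in ligated ones. Ligated libraries stood above naive ones in each genotype, and the ligated groups did not overlap. Its log2 fold change was 1.16 ± 0.34 (adjusted p = 0.0869) in WT and 1.87 ± 0.34 (adjusted p = 0.00568) in the libraries labelled Cybb-/-, the third largest after both selectins.

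Itgam, the α chain of Mac-1 on neutrophils, monocytes and macrophages, was at 6.61, 5.79 and 5.43 CPM in WT naive, 8.16, 12.6 and 10.9 CPM in WT ligated, 8.40, 7.10 and 6.25 CPM in naive libraries labelled Cybb-/- and 18.0, 16.0 and 23.5 CPM in ligated ones. Itgb2, the β chain shared by these α chains, was at 5.30, 4.87 and 5.65 CPM in WT naive, 8.69, 10.2 and 14.2 CPM in WT ligated, 7.74, 4.44 and 7.69 CPM in naive libraries labelled Cybb-/- and 21.1, 20.6 and 21.9 CPM in ligated ones. For both genes the ligated libraries labelled Cybb-/- were the highest 3 of the 12. The log2 fold change in WT was 0.83 ± 0.21 (adjusted p = 0.0557) for Itgam and 1.07 ± 0.23 (adjusted p = 0.0355) for Itgb2. In the libraries labelled Cybb-/- it was 1.40 ± 0.21 (adjusted p = 0.00269) for Itgam and 1.68 ± 0.23 (adjusted p = 0.00224) for Itgb2. DESeq2 called Itgal and Itgam in WT as well, with adjusted p-values of 0.0165 and 0.00729.

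An exact two-sided permutation test of each gene, with ligature labels permuted within genotype over 400 relabelings, gave p = 0.005, the smallest it allows, for Sele, Selplg, Pecam1, Itgal, Itgam and Itgb2. The same permutation test gave p = 0.01 for Selp and p = 0.02 for Icam1 and Vcam1.

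**Figure D2:**
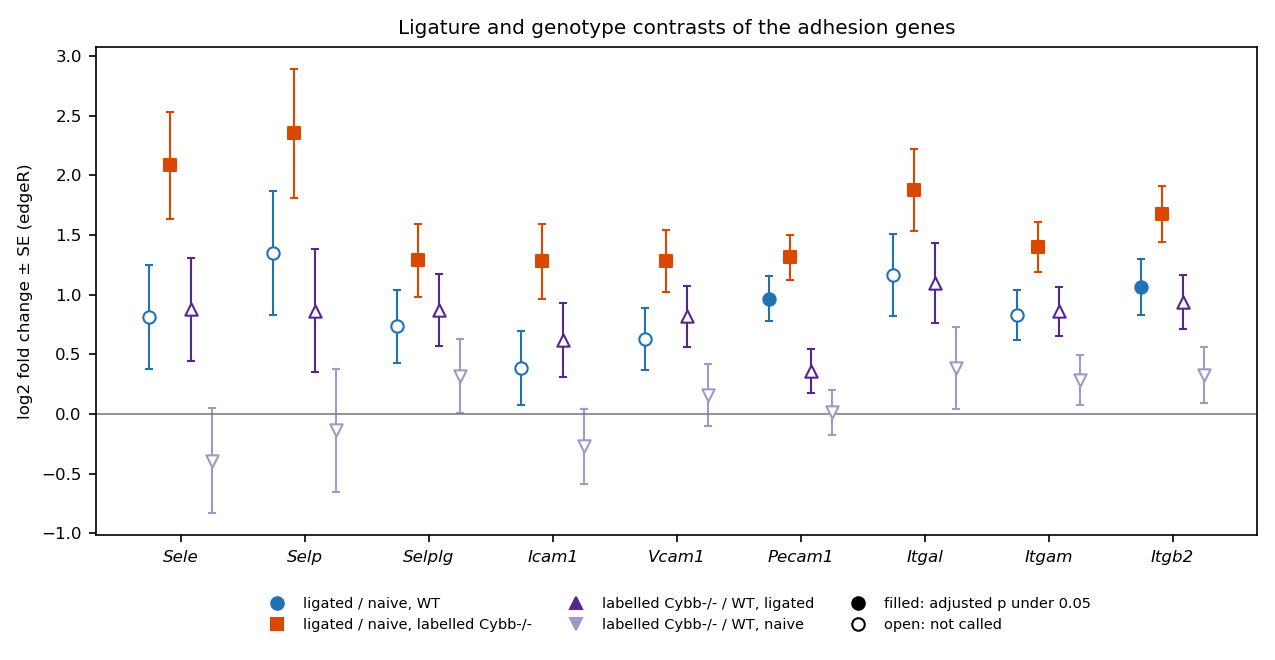
Log2 fold change ± SE of each adhesion gene from the edgeR fit in 4 contrasts, with filled symbols for an adjusted p under 0.05. All 9 squares (ligature, labelled Cybb-/-) are filled and 2 circles (ligature, WT) are, Pecam1 and Itgb2, while all triangles (genotype) are open, those in ligated tissue above 0 for all 9 genes.

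The genotypes were then compared at the same tissue state. In ligated gingiva all 9 members had a higher fitted level in the libraries labelled Cybb-/-, by a median log2 fold change of 0.87 against 0.01 for all genes, and edgeR called 0 of 9 (adjusted p between 0.996 and 1.00). In this contrast 1 gene was called in all, Cybb (0.00665% of those tested), and DESeq2 called 0 members and 18 genes. An unadjusted p under 0.05 was found for 5 of 9 members with edgeR, against 3.34% of all genes, and for 6 with DESeq2. The 5 were Selplg, Vcam1, Itgal, Itgam and Itgb2, with log2 fold changes (± SE) of 0.87 ± 0.30, 0.82 ± 0.26, 1.10 ± 0.33, 0.86 ± 0.21 and 0.94 ± 0.23. Every ligated library labelled Cybb-/- was above every ligated WT library for these 5 and for Icam1 (log2 fold change of 0.62 ± 0.31), 6 of 9 members against 5.0% of all genes. The exact permutation test gave p = 0.1 for each of these 6, the smallest that 3 libraries against 3 allow, and p = 0.4, 0.6 and 0.2 for Sele, Selp and Pecam1. The endothelial selectins and Pecam1, in which the groups overlapped, had log2 fold changes of 0.88 ± 0.43, 0.87 ± 0.51 and 0.36 ± 0.19. Leukocyte markers had higher fitted levels in the libraries labelled Cybb-/- too, with a median log2 fold change between genotypes in ligated tissue of 0.83 over 6 pan-leukocyte and 1.33 over 9 neutrophil genes, against 0.22 over 10 endothelial genes, none of them called by edgeR. The summed pan-leukocyte level did not overlap between the ligated groups, but the neutrophil sum did, since replicate 2 labelled Cybb-/- (2493 CPM) was below WT ligated replicates 2 (2580 CPM) and 3 (3769 CPM), and its Ptprc (30.7 CPM) was below WT ligated replicate 3 (42.7 CPM). For 6 of the 9 neutrophil genes (Csf3r, Cxcr2, Retnlg, Mmp8, Ly6g and Cd177) that library was above every WT ligated one, and for S100a8, S100a9 and Mmp9 it was not. Relative to the summed pan-leukocyte markers the log2 difference between genotypes was 0.12 for Selplg, 0.10 for Itgam, 0.21 for Itgb2 and 0.37 for Itgal, and relative to the endothelial sum it was 0.48 for Icam1 and 0.67 for Vcam1. The exact permutation test of these 6 ratios gave p between 0.1 and 0.7, and the part of cell numbers in the genotype difference was not tested.

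In naive gingiva the members differed less between genotypes. The log2 fold changes ran from -0.39 (Sele) to 0.39 (Itgal), with 6 above 0 and 3 below (Sele, Selp and Icam1), and a median of 0.16. EdgeR and DESeq2 called 0 of 9, and 0 had an unadjusted p under 0.05 with either tool, against 2.03% of all genes with edgeR. Of the members 0 stood higher without overlap, against 2.08% of all genes. The 1 gene that edgeR called higher among all (0.00665%) was again Cybb. The difference between the ligated and the naive genotype effect was above 0 for all 9 members, from 0.35 ± 0.26 (Pecam1) to 1.27 ± 0.61 (Sele) on the log2 scale. It was called for 0 members and for 0% of all genes by edgeR, with 0 members at an unadjusted p under 0.05 against 2.27% of all genes. DESeq2 called 0 members too, with 1 (Sele) at an unadjusted p under 0.05. A larger ligature response in the libraries labelled Cybb-/- was therefore not resolved for any single member.

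Bulk tissue cannot separate more cells of a type from more RNA per cell, so the members were set beside marker genes of the cells that carry them. Summed over 10 endothelial genes (Cdh5, Tek, Kdr and others), the level ran from 131 to 176 CPM in WT naive, 233 to 363 CPM in WT ligated, 148 to 184 CPM in naive and 255 to 362 CPM in ligated libraries labelled Cybb-/-, and 10 of 10 were called higher with ligature in the mean of the genotypes. Over 6 pan-leukocyte genes (Ptprc, Laptm5 and others) it ran from 63.1 to 80.7 CPM, 92.5 to 152 CPM, 60.98 to 85.2 CPM and 159 to 238 CPM in the same order, with 6 of 6 called. None of these markers was at 0 in any library. Neutrophil markers (372 to 843 CPM in WT naive, 2493 to 11643 CPM in ligated libraries labelled Cybb-/-) were called in 9 of 9, monocyte and macrophage markers in 9 of 9, fibroblast markers in 5 of 6, and T and NK cell markers in 6 of 9. Of the remaining lists, B and plasma cell markers had 0 higher and 2 lower of 4 tested, platelet markers 1 higher of 4 tested, oral epithelium 1 higher and 2 lower of 7, and skeletal muscle and salivary gland 0 of 5 and 0 of 4.

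Relative to these markers the changes of most members were smaller. The log2 ratio to the endothelial sum was higher in ligated libraries by 0.40 for Sele, 0.77 for Selp and 0.19 for Pecam1, and differed by -0.05 for Icam1 and -0.02 for Vcam1. The latter means average changes of opposite sign, -0.44 in WT and 0.33 in the libraries labelled Cybb-/- for Icam1 and -0.31 and 0.28 for Vcam1, and the Sele ratio likewise changed by -0.09 and 0.89. The difference between genotypes in these ratio changes was not tested. The log2 ratio to the pan-leukocyte sum was higher by 0.43 for Itgal and 0.28 for Itgb2, and differed by -0.03 for Selplg and -0.00 for Itgam. In the exact permutation test Itgal had p = 0.005 (0.045 adjusted over the 9 ratios), Pecam1 p = 0.02 (0.09 adjusted), Itgb2 p = 0.045 (0.135 adjusted), Selp p = 0.08 and Sele p = 0.275. With Cdh5 alone as the endothelial and Ptprc alone as the leukocyte reference, 0 of 9 ratios had a p under 0.05, and the ratio of Itgal changed by -0.00, that of Itgb2 by -0.15 and that of Pecam1 by -0.19. Without ligated replicate 2 labelled Cybb-/- the Selp ratio rose by 1.07 (exact permutation p = 0.02). That library had the lowest Selp ratio of its group, so its removal could only raise the mean of that group. The Selp ratio without each of the other libraries is not given here. The part of cell numbers in the members' change was not tested.

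**Figure D3:**
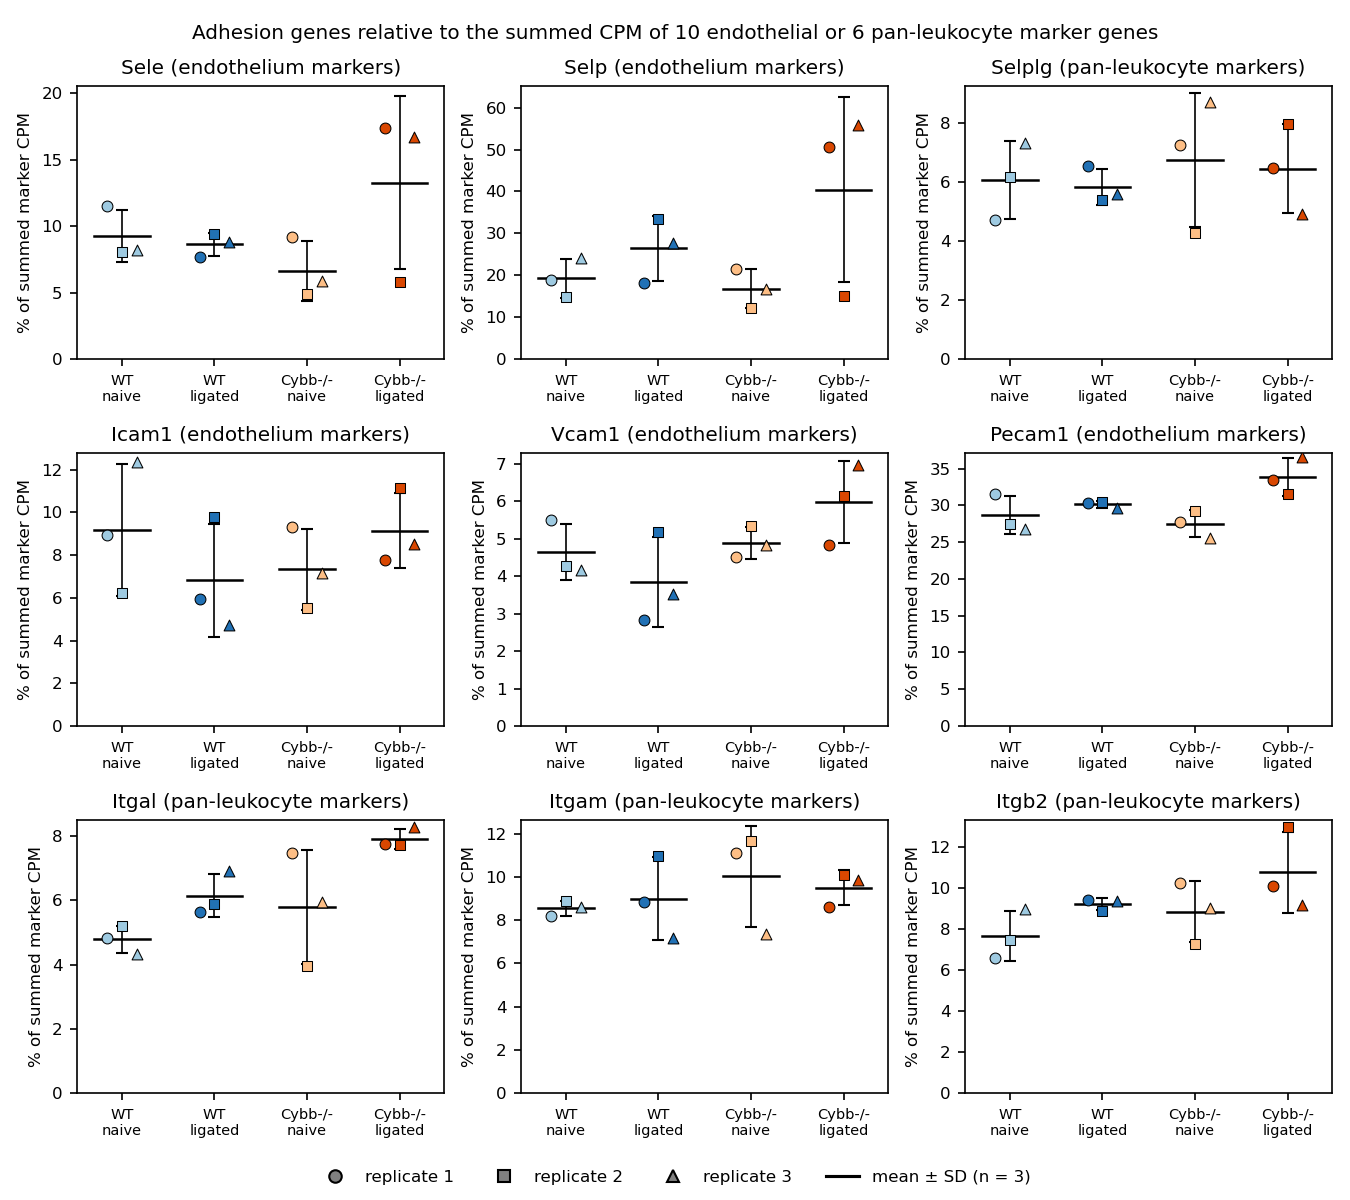
Each adhesion gene as a percentage of the summed CPM of 10 endothelial markers (Sele, Selp, Icam1, Vcam1, Pecam1) or 6 pan-leukocyte markers (Selplg, Itgal, Itgam, Itgb2), by library, with the mean and SD of 3 libraries per group. Naive and ligated groups overlap in most panels, and the selectins are high in ligated replicates 1 and 3 labelled Cybb-/- (Selp at 50.5% and 55.9%) and not in replicate 2 (15.0%).

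The α chains that pair with Itgb2 were also compared with each other per kilobase of exon. In WT naive libraries Itgax, the chain of dendritic cells and some macrophages, made up 51.3% ± 1.18 of the summed α-chain RPKM, Itgam 34.0% ± 1.57, Itgal 14.5% ± 0.84 and Itgad 0.254% ± 0.249 (SD, n = 3). In WT ligated libraries the shares were 43.3% ± 6.77 for Itgax, 36.8% ± 7.16 for Itgam and 19.5% ± 3.89 for Itgal. In naive libraries labelled Cybb-/- they were 41.3% ± 6.07, 40.4% ± 7.80 and 17.9% ± 5.01, and in ligated ones 33.0% ± 0.761, 40.8% ± 1.24 and 26.04% ± 1.38. Itgal therefore gained share with ligature while Itgax lost it. The mean change within genotype was 6.55 percentage points for Itgal and -8.12 points for Itgax (p = 0.005 for each, the smallest the exact permutation test allows), and 1.61 points for Itgam (p = 0.565). The log2 ratio of Itgal to Itgam rose by 0.43 (exact permutation p = 0.05). Itgad rested on at most 7 reads in a library, and its share is not compared. The summed α-chain RPKM was 3.50 ± 0.522 in WT naive, 5.74 ± 0.920 in WT ligated, 3.62 ± 0.539 in naive and 9.37 ± 2.07 in ligated libraries labelled Cybb-/-, and exceeded that of Itgb2 in each group.

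**Figure D4:**
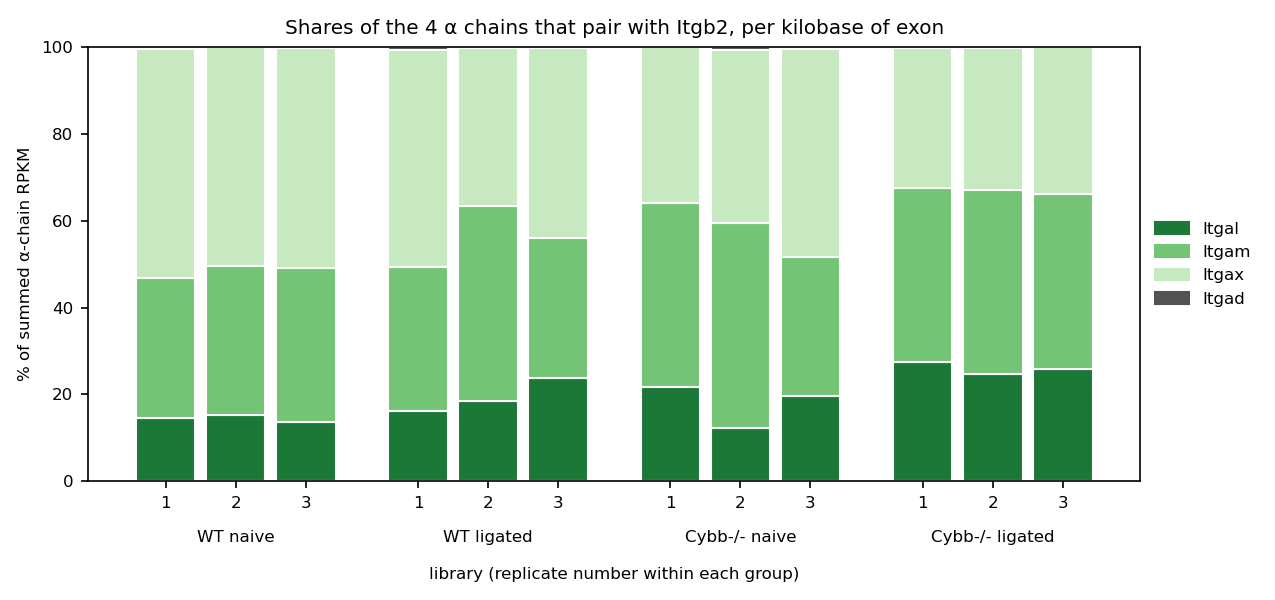
Share of each α chain in the summed RPKM of Itgal, Itgam, Itgax and Itgad, as a stacked bar per library from 0 to 100%. Itgal (dark green, at the bottom) fills between 12.2% and 21.8% of the bar in naive and between 16.2% and 27.5% in ligated libraries, and Itgax (pale) fills 50.5% to 52.6% in WT naive, 36.3% to 49.9% in WT ligated, 36.0% to 47.9% in naive and 32.4% to 33.8% in ligated libraries labelled Cybb-/-.

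The rest of the adhesion pathway was described with 5 lists of 65 genes, of which 62 passed the filter (Madcam1, Itgad and Gdf15 did not). These lists were written with earlier results of these data known, and their shares were not tested against all genes. With ligature edgeR called 33 of 62 higher and 1 lower in the mean of the genotypes, 28 higher in the libraries labelled Cybb-/- and 7 higher in WT, beside the 14.7%, 9.95% and 2.31% of all genes given above. The median log2 fold change was 0.66, 0.83 and 0.49. The 7 in WT were Glg1, Cdh5, Mcam, Fyb, Fgr, Lyn and Rac2. The counts in WT fell to 1, 0, 1 and 0 without WT naive replicate 1, WT naive replicate 2, WT ligated replicate 2 and WT ligated replicate 3, and DESeq2 called 15. In the libraries labelled Cybb-/- 18, 16 and 14 were called without naive replicate 2, ligated replicate 1 and ligated replicate 3. Between genotypes edgeR and DESeq2 called 0 in ligated and in naive tissue, with 11 and 0 of 62 at an unadjusted p under 0.05 in edgeR, and the median was 0.21 in ligated and -0.00 in naive tissue.

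Among selectins and selectin ligand genes 7 of 16 were called higher in the mean of the genotypes, and 14 of 16 had a log2 fold change above 0. The sulfotransferase Chst2 rose by 1.16 ± 0.23, the sialomucin Spn by 0.94 ± 0.17 and the glycan-branching enzyme Gcnt1 by 0.91 ± 0.25. Fut4 and Fut7, the fucosyltransferases that finish selectin ligands, were not called, with log2 fold changes of 0.76 ± 0.36 and 0.27 ± 0.46. They were picked after their values were seen, and group means of Fut7 were between 0.184 and 0.319 CPM.

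Of immunoglobulin and junctional molecules 6 of 12 were called higher, and 11 of 12 had a log2 fold change above 0. Mcam rose by 1.73 ± 0.21 and Cdh5, the cadherin of endothelial junctions, by 1.31 ± 0.15, and both were called in WT alone and in the libraries labelled Cybb-/- alone. Esam rose by 0.95 ± 0.17 and Icam2, a β2 integrin ligand of resting endothelium, by 0.88 ± 0.18. Cdh5 and Esam also belong to the endothelial markers.

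Of other leukocyte integrin chains 7 of 8 were called higher, by smaller amounts than Itgal or Itgb2. All 8 had a log2 fold change above 0. Itga5, a fibronectin receptor chain, rose by 1.17 ± 0.19, Itga4, the partner of Vcam1, by 0.89 ± 0.17, Itga9 by 0.76 ± 0.12 and Itgax by 0.75 ± 0.17. Itga4 went from a mean of 4.76 to 7.50 CPM in WT and from 4.63 to 10.1 CPM in the libraries labelled Cybb-/-.

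Of the genes that activate integrins or signal from them 9 of 18 were called higher, and 16 of 18 had a log2 fold change above 0. Among those called were the adaptor Fyb (1.80 ± 0.20), the Src-family kinase Fgr (1.80 ± 0.23) and the GTPase Rac2 (1.72 ± 0.22), which are mostly made in blood cells. Fermt3, the kindlin of blood cells that β2 integrins need for activation, was among the genes not called. It was at 26.1 ± 9.72 CPM in WT naive, 22.6 ± 6.13 CPM in WT ligated, 25.2 ± 6.37 CPM in naive and 24.2 ± 6.85 CPM in ligated libraries labelled Cybb-/-, a log2 fold change of -0.13 ± 0.22 (adjusted p = 0.703).

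Of the inhibitors of leukocyte adhesion 4 of 8 were called higher and 1 lower, and 6 of 8 had a log2 fold change above 0. Ptx3, a pentraxin that binds P-selectin, rose by 1.90 ± 0.34, Edil3, a secreted protein known to block Itgal binding in the gingiva, by 1.28 ± 0.35, the endothelial nitric oxide synthase Nos3 by 0.95 ± 0.23 and the galectin Lgals1 by 0.70 ± 0.16. Edil3 varied widely among ligated libraries labelled Cybb-/-, from 5.72 to 32.5 CPM. Lgals3, named after its value was seen, fell by 0.38 on the log2 scale (SE 0.10, adjusted p = 0.0176), and was not called lower when libraries were scaled by size alone.

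**Figure D5:**
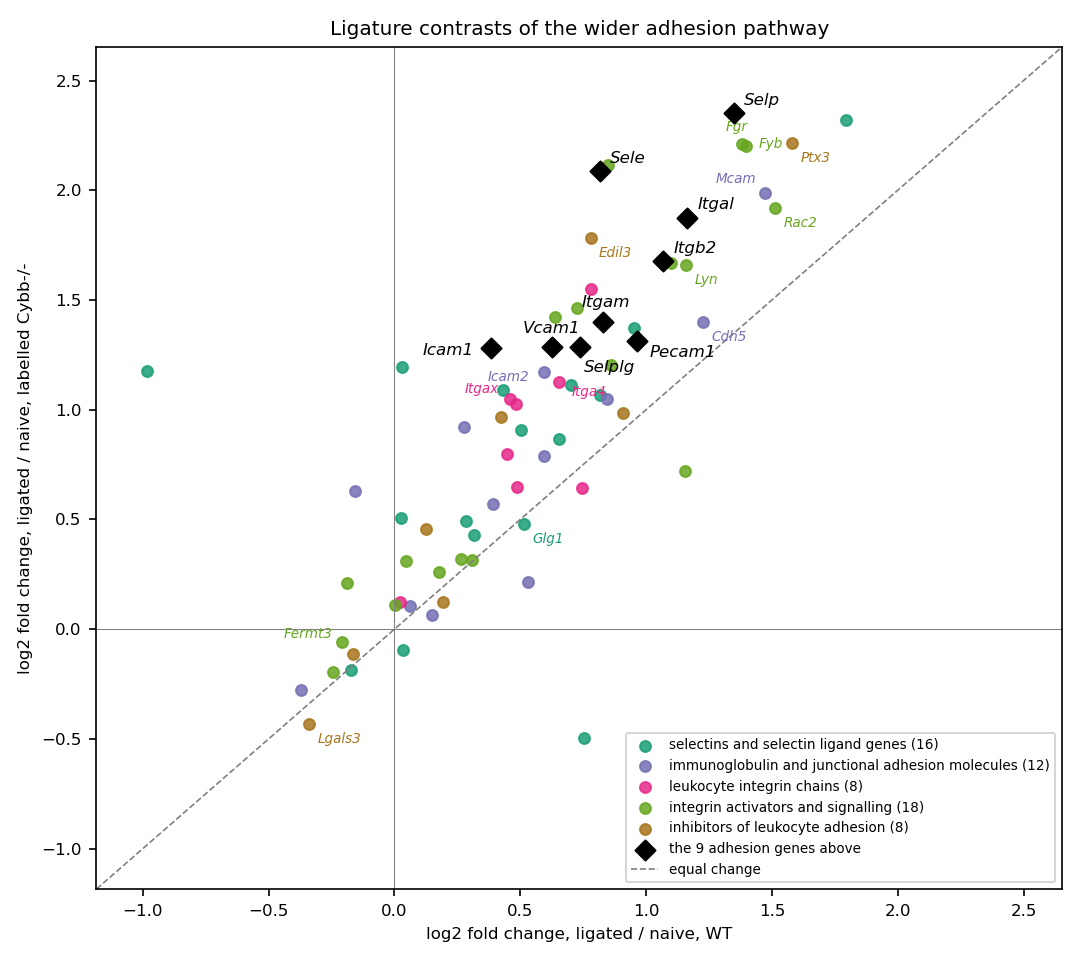
Log2 fold change with ligature in WT (horizontal) and in the libraries labelled Cybb-/- (vertical) for 62 genes of 5 adhesion lists (coloured) and the 9 adhesion genes (black diamonds), with a dashed line of equal change. All 9 diamonds lie above the line and to the right of 0, Icam1 furthest left at 0.39 and Selp highest at 2.35, while Fermt3 lies just below 0 on both axes.

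The 3 genes closest to each member were found by the mean absolute difference of their log2 CPM over the 12 libraries, after each gene was centred on its own mean. Pecam1 was closest to Elk3 (0.0763), Elmo1 (0.0843) and Robo4 (0.0969), the smallest distances of any member. Selplg was closest to Coro1a (0.128), Pik3cd (0.143) and Alox5ap (0.168), and Icam1 to Plekho2 (0.132), Limd2 (0.135) and Csf1 (0.135). Itgb2 was closest to Tyrobp (0.142), Hcls1 (0.145) and Myo1f (0.152), and Itgal to Themis2 (0.144), Nlrp3 (0.158) and Slc11a1 (0.165). Itgam had Vcam1 as its closest gene of all (0.178), then Pdpn (0.180) and Stom (0.181), and Vcam1 had Dok3 (0.163), Stom (0.167) and Epsti1 (0.176) before Itgam. Sele was closest to Dio2 (0.186), Serpine2 (0.190) and Fmod (0.204) and Selp to Hgf (0.245), Ccl7 (0.250) and Sele (0.255). The nearest genes of both selectins were at larger distances than those of the other members.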

How the data were processed

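For 12 gingival libraries the authors deposited unnormalised read counts per gene. The libraries were stranded mRNA libraries that the study's methods describe as aligned to GRCm38 with STAR. The methods name featureCounts as the counter and the labels name HTSeq 0.10.0, so the counter is not settled. Total counts ran from 27958819 to 42613423 per library and member counts from 75 to 8630, with an edgeR common coefficient of variation of 0.240 between libraries. Here Ensembl identifiers were matched to GENCODE M21. Counts were tested in R 4.3.3 with edgeR 4.0.16 (quasi-likelihood F test, TMM, filterByExpr, 1 mean per group over 12 libraries), with Benjamini-Hochberg adjustment over 15046 genes. DESeq2 1.42.0 was an alternative, as were other scalings, filters, a robust fit, fits of the libraries compared, the replicate block and each library left out. Single values were compared by exact two-sided permutation tests. In simulated data for ligated against naive WT, with 200 of 15046 genes changed, edgeR recovered 54.0% of 2-fold and 93.3% of 4-fold changes, and 3.45% of its calls were false. Before these changes every group had the WT naive means, and the spread followed only its trend with level. These rates need not hold for the real libraries. Members and lists were chosen with earlier results of these data known. Of the lists, at most the 4 genes with the largest change per contrast were named among those called, plus Itgax, Itga4, Icam2, Fermt3 and Edil3, and per member the 3 closest genes. Some genes that this rule names are not reported here.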

Additional observations from a re-analysis of the deposited data

How the results depend on the processing

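The count of 9 members called higher in the mean of the genotypes was 9 under every alternative and with each library left out. In WT the 2 calls became 4 with DESeq2 and 1 when only the libraries compared were fitted, and ranged from 0 to 3 with a library left out. In the libraries labelled Cybb-/- the 9 calls became 8 (without Selplg) when only the libraries compared were fitted, and ranged from 5 to 9 with a library left out. The cause was not tested. The replicate numbers gave no clear sign of pairing. Only 2 of 18 pairs with the same number correlated above 0.1 (median -0.13), and 4 of 12 libraries correlated best with their own number. With 3 libraries per group these correlations cannot show whether libraries of the same number shared a batch. The replicate block left 2 members called in WT and 9 in the libraries labelled Cybb-/-. Of the adhesion lists, alternatives added after the data were seen gave 15 genes in WT with DESeq2, 4 with the replicate block, 3 with only the libraries compared and 0 to 9 with a library left out, and 14 to 33 in the libraries labelled Cybb-/-. Scaling by library size alone moved the median of all genes in WT from -0.03 to 0.08, and turned 348 higher and 133 lower calls there into 477 and 68, and 2215 and 1453 in the mean of the genotypes into 2628 and 726, with members called 3, 9 and 9. Direction was not stable for naive genotype differences near 0, which with a library left out ranged from -0.31 to 0.19 for Selp, -0.036 to 0.64 for Selplg, -0.49 to 0.15 for Icam1 and -0.031 to 0.067 for Pecam1. The same held for ratios to marker sums, from -0.18 to 0.075 for Selplg, -0.20 to 0.067 for Icam1, -0.13 to 0.082 for Vcam1 and -0.11 to 0.077 for Itgam, and for the Itgam share, from -0.53 to 3.28 points. With Cdh5 or Ptprc alone 0 ratios passed and those of Pecam1 (-0.19), Itgal (-0.0019) and Itgb2 (-0.15) turned negative.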
